A study of Mus musculus with 13 samples.

Results

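Transcripts of 10 genes for the light chains of myosin and for proteins that bind myosin were followed in the gastrocnemius, a calf muscle of mostly fast fibres, of obese mice. The genes were chosen by name from the table of normalized counts: the light chains Myl1, Mylpf, Myl2, Myl3, Myl4 and Myl6b, the light chain kinase Mylk2, and the binding proteins Mybpc1, Mybpc2 and Mybph. They are 10 of the 21868 genes in the table, and all 10 were among the 12303 genes that were tested. Male C57BL/6N mice entered the study at 7 weeks of age and, after 1 week of acclimatization, ate a diet with 60% of its energy from fat for 15 to 17 weeks. All were then moved to standard chow and treated for 3 weeks. The 5 vehicle mice received phosphate-buffered saline, the 5 semaglutide mice received 30 nM/kg/day of the GLP-1 receptor agonist semaglutide intraperitoneally, and the 3 semaglutide + ketone ester mice drank water with 0.114 g/mL of a ketone ester while on that same dose of semaglutide. The sample labels also name a placebo in the vehicle group and in the semaglutide group, which is not described in the sources used here. No group received the ketone ester alone, and none stayed on the high-fat diet. Each library came from 1 mouse, so that the spread given below is between animals.

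Myosin is the motor of the thick filament, and each of its heads carries a pair of light chains, an essential one and a regulatory one, wrapped around the lever arm that turns the motor's movement into force. Muscle fibres use different genes for these chains according to their type: fast fibres use Myl1 (essential) and Mylpf (regulatory), whereas slow fibres use Myl3 (essential) and Myl2 (regulatory), which also serve the heart ventricle. The skeletal muscle light chain kinase encoded by Mylk2 is switched on by calcium and calmodulin and phosphorylates the regulatory chain, which strengthens contraction after repeated stimulation. Myosin-binding protein C, with a slow form (Mybpc1) and a fast form (Mybpc2), lies in stripes along the thick filament and tunes how many heads can reach actin, and Mybph encodes the shorter, related myosin-binding protein H.

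The sequence in front of the start site was available for 9 of the 10 genes in the RefSeq promoter table of GRCm38.p6. Each window of 250 bases before the start was searched on both strands for the E-box CANNTG, which myogenic factors bind, for the MEF2 site and for the CArG box bound by serum response factor. Of 32851 mouse promoters, 66.2% held an E-box, 0.508% a MEF2 site and 1.47% a CArG box. E-boxes were found in 8 of the 9 genes, Myl4 being the exception, and the only CArG box lay 85 bases before the start of Myl3. No MEF2 site was found in these windows. The starts are those of RefSeq and can differ from the gene bounds given below. For Myl2 the starts used (122092724 and 122093189) lie upstream of its bounds, which begin at 122100951. The sequence directly before those bounds was therefore not searched. The starts used for Myl1 (66945056), Mylpf (127211608) and Myl3 (110763678) lie inside their bounds. The windows of Mylpf and Mybph are printed because both genes were higher with the ketone ester than with semaglutide alone, and that of Mybpc2 because this abundant fast gene did not pass the threshold. None of the 3 overlaps an annotated exon, and capitals mark the E-box, which starts 51 bases before the start in Mylpf, 79 in Mybph and 157 in Mybpc2.
Mylpf, chr7:127211358-127211607, plus strand: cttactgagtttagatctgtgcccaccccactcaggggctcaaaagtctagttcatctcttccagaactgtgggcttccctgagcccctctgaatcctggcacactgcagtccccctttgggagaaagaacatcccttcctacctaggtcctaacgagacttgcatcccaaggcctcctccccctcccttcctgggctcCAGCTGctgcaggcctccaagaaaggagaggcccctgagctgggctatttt
Mybph, chr1:134193198-134193447, plus strand: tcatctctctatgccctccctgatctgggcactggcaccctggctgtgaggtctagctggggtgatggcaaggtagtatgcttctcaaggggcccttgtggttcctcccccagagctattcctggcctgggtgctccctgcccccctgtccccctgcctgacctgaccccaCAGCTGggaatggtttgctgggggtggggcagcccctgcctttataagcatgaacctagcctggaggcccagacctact
Mybpc2, chr7:44524670-44524919, minus strand: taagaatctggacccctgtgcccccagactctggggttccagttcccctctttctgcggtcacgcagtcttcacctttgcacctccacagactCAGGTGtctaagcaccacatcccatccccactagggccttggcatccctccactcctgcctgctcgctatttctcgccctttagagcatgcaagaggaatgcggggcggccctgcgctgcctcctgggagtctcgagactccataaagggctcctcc
Since most mouse promoters hold an E-box, its presence does not set these genes apart.

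Transcripts of the fast light chains and of the fast binding protein Mybpc2 were the most abundant of the 10. Expressed as normalized counts per kilobase of annotated exon, the level in vehicle mice was 98257 ± 9141 (SD, n = 5) for Mylpf, 52361 ± 4422 for Myl1 and 32004 ± 4062 for Mybpc2. Mylk2 at 6360 ± 644 and Mybpc1 at 4671 ± 1174 followed, with overlapping spread. On the same per-kilobase scale Myl3 (1458 ± 667), Myl2 (1361 ± 644) and Mybph (922 ± 197) could not be ordered beyond their spread, and Myl6b (61.8 ± 8.85) and Myl4 (29.5 ± 10.8) were lowest. With semaglutide the mean of Mybpc2 (35226 ± 6960 per kilobase, n = 5) lay above that of Myl1 (24334 ± 12612), with overlapping spread. With semaglutide + ketone ester, Mybph reached 2969 ± 487 per kilobase (n = 3) and stood above Myl3 (1117 ± 290) and Myl2 (1079 ± 171). The 10 genes together took 1.95% ± 0.10 of all counted reads in vehicle mice, 1.78% ± 0.23 in semaglutide mice and 2.69% ± 0.39 in semaglutide + ketone ester mice.

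The libraries held between 15319471 and 23498162 reads counted on genes. Semaglutide mouse 13 stood apart from its group: on the first principal component of all tested genes (38.1% of the variance) it lay at -9.12, against 31.8 to 52.5 in the other semaglutide mice, -24.5 to -12.8 in vehicle mice and -25.6 to -15.8 in semaglutide + ketone ester mice. Results are therefore given with and without this mouse where it changed them. Mouse 13 was singled out from these same values and lay close to the other groups. Leaving it out therefore favours differences between semaglutide and the other groups. Skeletal muscle genes were abundant in all libraries, while 4 of 5 markers of heart muscle (Nppa, Myl7, Tnni3 and Mybpc3) had a mean below 10 normalized counts. Markers of other cell types moved as well: of 5 genes each, 4 fibroblast, 3 tendon and 3 smooth muscle markers were lower with semaglutide than with vehicle, and 5 red cell, 3 fibroblast, 3 tendon, 3 endothelial and 1 smooth muscle marker were higher (1 tendon marker was lower) with semaglutide + ketone ester than with semaglutide. Summed fibroblast markers ranged from 5120 to 11723 normalized counts in vehicle, 4625 to 6371 in semaglutide and 6644 to 11019 in semaglutide + ketone ester mice, and tendon markers from 1253 to 6717, 745 to 2713 and 3234 to 3991. Red cell markers summed to 1356 to 2291, 50.5 to 3148 and 2849 to 5558 in the same order, endothelial markers to 3225 to 3875, 3278 to 3715 and 3572 to 4162, and smooth muscle markers to 3026 to 3998, 1676 to 3133 and 2860 to 3436. None of the 5 adipocyte markers passed the threshold in any comparison. Their sum ranged from 560 to 2610 normalized counts in vehicle, 141 to 10771 in semaglutide and 1007 to 1998 in semaglutide + ketone ester mice. The part of these cells in the results was not tested. In bulk muscle, fewer fibres of a type and less RNA per fibre cannot be told apart.

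With semaglutide 2 of the 10 genes, the fast essential chain Myl1 and the slow essential chain Myl3, were lower than with vehicle, and none was higher (limma, adjusted p under 0.05 over all genes tested). This was a share of 20.0%, against a background of 26.5% of all genes tested that differed in this comparison, 12.5% higher and 13.9% lower. Adding the ketone ester to semaglutide changed 4 of the 10: Myl1, Mylpf and Mybph were higher and Mylk2 was lower. The background here was 20.7%, with 10% of genes higher and 10.7% lower. Between semaglutide + ketone ester and vehicle none of the 10 passed the threshold in limma, where the background was 0.366%, or 0.0975% higher and 0.268% lower. At an unadjusted p under 0.05 there were 4 of the 10 (Mylpf, Mylk2, Mybpc2 and Mybph), against 10.4% of all genes tested. Without semaglutide mouse 13, the 3 comparisons called 5, 5 and 1 (Mybph) of the 10 genes, against backgrounds of 37.5%, 33.5% and 1.07%. The median log2 difference of the 10 was -0.19, 0.28 and 0.16 in the 3 comparisons, beside 0.00, 0.00 and -0.01 over all genes tested. Over all genes, 1540 were higher and 1715 lower with semaglutide than with vehicle, and 1234 and 1312 with semaglutide + ketone ester than with semaglutide, but with columns rescaled to equal totals the splits were 3351 and 985, and 637 and 3715. Under that scaling 35.2% and 35.4% of all genes tested were called. Mylk2 was then called in addition to Myl1 and Myl3 in the first comparison, and the 4 genes of the second were called again. Because the same semaglutide mice stand in the first and second comparison, opposite signs between them are favoured by the design.

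**Figure D1:**
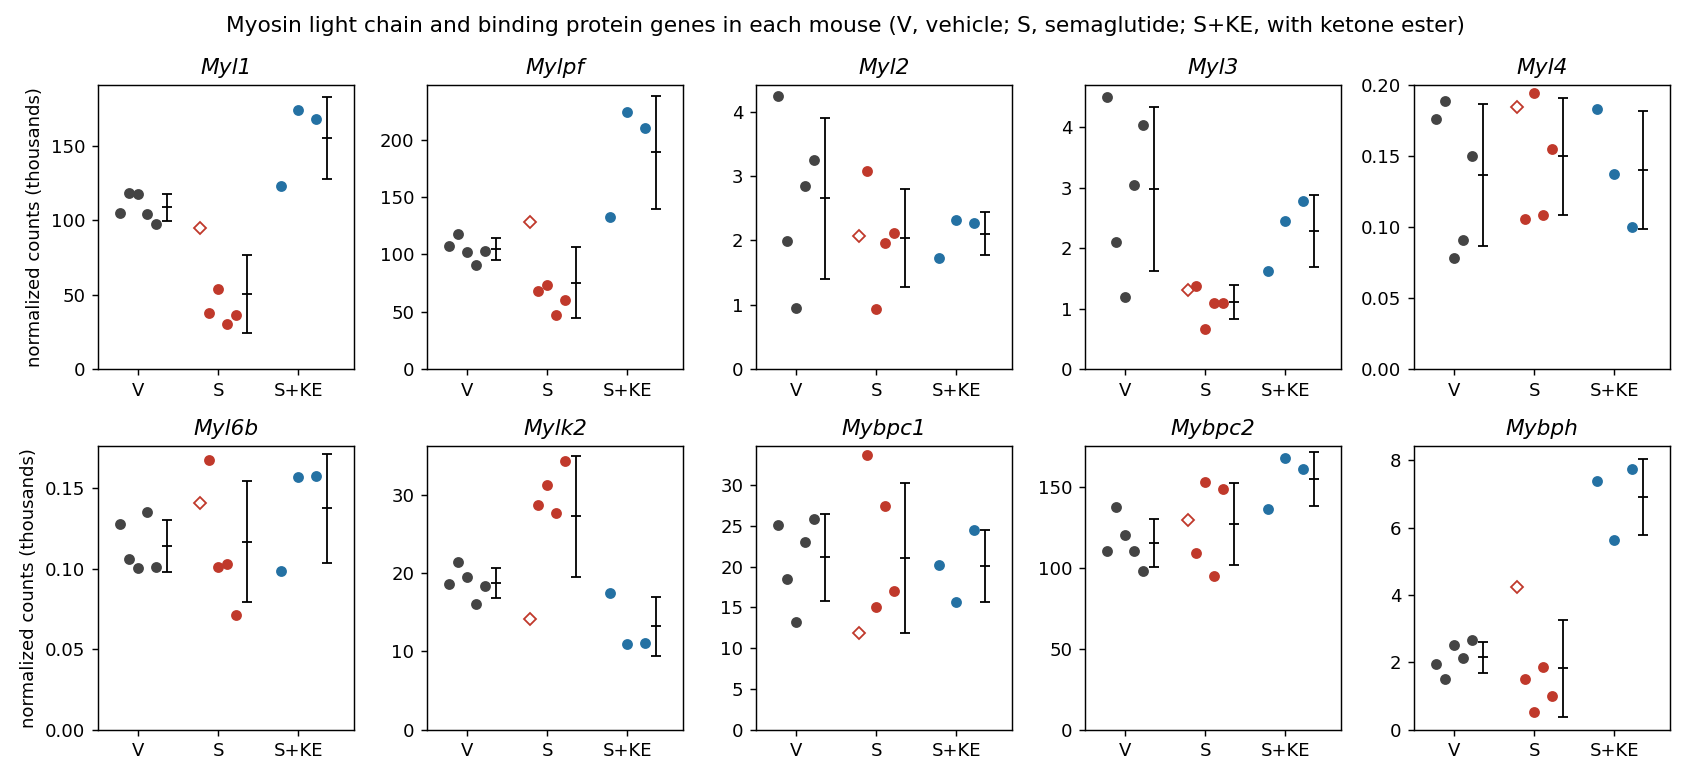
Normalized counts (in units of 1e3, vertical axis from 0) of the 10 genes in each mouse, with V for vehicle (n = 5), S for semaglutide (n = 5) and S+KE for semaglutide + ketone ester (n = 3); the open diamond is semaglutide mouse 13, and bars give mean ± SD. Myl1, Mylpf and Mybph are highest in the S+KE mice, whereas Mylk2 is highest in 4 of the 5 S mice.

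Myl1, the essential light chain of fast fibres, lies on chromosome 1 from 66924295 to 66945404 (GRCm38, minus strand). Its normalized counts were 104863, 118497, 117853, 104039 and 97734 in vehicle mice 1 to 5, 94673, 37716, 53505, 30399 and 36049 in semaglutide mice 13 to 17, and 123319, 174376 and 167913 in semaglutide + ketone ester mice 19, 21 and 22. All semaglutide mice were below all vehicle mice, mouse 13 only narrowly, and all semaglutide + ketone ester mice were above both other groups. Myl1 was the only one of the 10 genes whose semaglutide and vehicle values did not overlap, which held for 14.7% of all genes tested. Semaglutide mice had 2.35-fold less Myl1 than vehicle mice, a log2 difference of -1.23 (SE 0.25, adjusted p = 0.00302, limma). With the ketone ester the level was 3.32-fold that of semaglutide alone, a log2 difference of 1.73 (SE 0.29, adjusted p = 0.00144). Compared with vehicle it was 0.50 higher on the log2 scale (95% interval -0.11 to 1.12, adjusted p = 0.602), which did not pass the threshold. The gene gives rise to a long and a short form of the chain from separate starts, and gene-level counts do not separate them.

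Mylpf, the regulatory light chain of fast fibres and the substrate of the Mylk2 kinase, lies on chromosome 7 from 127208890 to 127214298 (plus strand). Vehicle mice 1 to 5 had 107545, 117952, 102392, 91110 and 102744 normalized counts, semaglutide mice 13 to 17 had 128225, 68068, 72962, 47229 and 59753, and semaglutide + ketone ester mice had 132614, 224029 and 210117. In 4 of the 5 semaglutide mice Mylpf was below every vehicle mouse, but mouse 13 was above them all. The log2 difference between semaglutide and vehicle was -0.55 (SE 0.23, 95% interval -1.04 to -0.06, adjusted p = 0.0904, limma). Without mouse 13 it was -0.77 and passed the threshold (adjusted p = 0.00329; range over all 25 other settings 0.00329 to 0.188). With the ketone ester Mylpf rose 2.60-fold over semaglutide alone (log2 difference 1.38, SE 0.27, adjusted p = 0.00325). The lowest semaglutide + ketone ester mouse lay just above semaglutide mouse 13 and above all vehicle mice. Against vehicle the log2 difference was 0.82 (95% interval 0.25 to 1.39, adjusted p = 0.256, limma). It passed the threshold in 3 of 25 other settings (adjusted p 0.019 to 0.684).

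The slow light chains went apart: Myl3 fell with semaglutide, while no difference in Myl2 passed the threshold. Myl3, the essential chain of slow fibres (chromosome 9, 110741861 to 110769798, plus strand), had 4512, 2108, 1194, 3048 and 4044 normalized counts in vehicle mice 1 to 5, 1314, 1367, 658, 1095 and 1096 in semaglutide mice 13 to 17, and 1625, 2445 and 2777 in semaglutide + ketone ester mice 19, 21 and 22. Vehicle mice varied 3.78-fold among themselves, and only vehicle mouse 3 reached into the range of the semaglutide mice. Myl3 was 2.50-fold lower with semaglutide than with vehicle (log2 difference -1.32, SE 0.32, adjusted p = 0.00761, limma). All semaglutide + ketone ester mice were above all semaglutide mice, by 1.05 on the log2 scale (SE 0.36). With an adjusted p of 0.0540 this difference narrowly missed the threshold, which it passed in 9 of 25 other settings, among them those without vehicle mouse 1, vehicle mouse 3 or semaglutide mouse 13 (adjusted p = 0.0450, 0.0185 and 0.0313; range over the settings 0.0130 to 0.193). Reads of Myl3 could in part be those of Pth1r, which overlaps it on the opposite strand, as the strand used in counting is not given in the sources used here.

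Myl2, the slow regulatory chain (chromosome 5, 122100951 to 122113472, plus strand), had 4252, 1994, 944, 2839 and 3246 normalized counts in vehicle mice, 2073, 3084, 936, 1952 and 2113 in semaglutide mice and 1720, 2317 and 2274 in semaglutide + ketone ester mice. The groups overlapped throughout, and the vehicle mice spanned nearly the whole range of the others. The log2 difference from vehicle was -0.32 with semaglutide (95% interval -1.08 to 0.45, adjusted p = 0.550, limma) and -0.18 with semaglutide + ketone ester (95% interval -1.07 to 0.70, adjusted p = 0.934). These intervals are wide enough to hold a fall as large as 2-fold. The gene Ccdc63 overlaps Myl2 on the opposite strand, so that the limit given for the reads of Myl3 holds for Myl2 too.

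The remaining light chains were scarce. Myl4, the essential chain of the atrium and of developing muscle (chromosome 11, 104550663 to 104595753), ranged from 78.0 to 189 normalized counts in vehicle, 106 to 194 in semaglutide and 99.7 to 183 in semaglutide + ketone ester mice. Myl6b, an essential chain of slow muscle and of non-muscle cells (chromosome 10, 128494157 to 128498685), ranged from 100 to 135, from 71.6 to 168 and from 98.4 to 157 in the same order. Groups overlapped in both genes. The log2 differences lay between -0.09 and 0.17 for Myl4 and between -0.01 and 0.26 for Myl6b, none past the threshold, and their 95% intervals reached from -0.75 to 0.74 for Myl4 and from -0.46 to 0.78 for Myl6b.

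Mylk2, the kinase of the regulatory chain, moved against the fast light chains. The gene lies on chromosome 2 from 152911352 to 152923068 (plus strand) and had 18548, 21364, 19446, 16112 and 18376 normalized counts in vehicle mice 1 to 5, 14162, 28753, 31286, 27660 and 34378 in semaglutide mice 13 to 17, and 17507, 10997 and 11062 in semaglutide + ketone ester mice 19, 21 and 22. Of the semaglutide mice 4 were above every vehicle mouse, whereas mouse 13 was below every vehicle mouse. With all mice the log2 difference between semaglutide and vehicle was 0.48 (SE 0.21, 95% interval 0.03 to 0.93, adjusted p = 0.103, limma). Without mouse 13 it was 0.70 (adjusted p = 0.00103), and it passed in 5 of 25 other settings (adjusted p 0.00103 to 0.236). Semaglutide + ketone ester mice had 2.03-fold less Mylk2 than semaglutide mice (log2 difference -1.02, SE 0.24, adjusted p = 0.00991). That call was lost when semaglutide + ketone ester mouse 21 or mouse 22 was left out (adjusted p = 0.0582 and 0.0585), and when the vehicle mice were left out of the model (adjusted p = 0.0514), within a range of 4.45e-05 to 0.0585 over 25 other settings. Against vehicle the difference was -0.54 (95% interval -1.06 to -0.02, adjusted p = 0.450).

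Of the binding proteins, Mybph changed and the slow and fast forms of myosin-binding protein C did not pass the threshold. Mybph (chromosome 1, 134193448 to 134201232, plus strand) had 1942, 1510, 2509, 2114 and 2657 normalized counts in vehicle mice 1 to 5, 4228, 1497, 518, 1859 and 987 in semaglutide mice 13 to 17, and 7391, 5620 and 7733 in semaglutide + ketone ester mice 19, 21 and 22. The semaglutide + ketone ester mice stood above all 10 others, and semaglutide mouse 13 came next. Against semaglutide alone the level was 4.78-fold (log2 difference 2.26, SE 0.46, adjusted p = 0.00417, limma), the largest difference among the 10 genes in any of the 3 comparisons. Against vehicle the log2 difference was 1.70 (SE 0.46, 95% interval 0.72 to 2.68) with an adjusted p of 0.156. It passed the threshold in 3 of 25 other settings, among them that without semaglutide mouse 13 (adjusted p over the settings 0.00170 to 0.490). Semaglutide and vehicle differed by -0.56 (adjusted p = 0.327), and by -0.95 without mouse 13 (adjusted p = 0.0176; range over 25 other settings 0.0109 to 0.748). The adenosine receptor gene Adora1 overlaps Mybph on the opposite strand.

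Groups without overlap were not always those past the threshold. Between semaglutide + ketone ester and semaglutide, Myl1, Myl3, Mylpf and Mybph did not overlap, 4 of 10 against 20.1% of all genes tested; Myl3 was not called and Mylk2 was called with overlap. Between semaglutide + ketone ester and vehicle, Myl1, Mylpf and Mybph did not overlap, 3 of 10 against 11.3%, although none was called.

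Mybpc2, the fast myosin-binding protein C (chromosome 7, 44501699 to 44524656, minus strand), had 98393 to 137786 normalized counts in vehicle mice with a mean of 115567 ± 14666, 94990 to 153358 in semaglutide mice with a mean of 127202 ± 25132, and 136288 to 167819 in semaglutide + ketone ester mice with a mean of 155139 ± 16647. The groups overlapped in every comparison. Its log2 difference was 0.12 between semaglutide and vehicle (95% interval -0.22 to 0.47, adjusted p = 0.604, limma), 0.30 between semaglutide + ketone ester and semaglutide (-0.09 to 0.70, adjusted p = 0.261, with the opposite sign under quantile normalization) and 0.43 between semaglutide + ketone ester and vehicle (0.03 to 0.82, adjusted p = 0.428). The first interval excludes a fall as large as that of Myl1, although both are genes of fast fibres. Mybpc1, the slow form (chromosome 10, 88518279 to 88605152, minus strand), had means of 21148 ± 5315, 21072 ± 9195 and 20127 ± 4419 normalized counts in vehicle, semaglutide and semaglutide + ketone ester mice. Its semaglutide mice spread from 11912 in mouse 13 to 33769 in mouse 14, wider than both other groups. The log2 differences were between -0.07 and 0.02, with 95% intervals reaching from -0.72 to 0.68. Their sign changed with the scaling in the comparisons that include semaglutide alone. It changed on leaving out single mice in every comparison.

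**Figure D2:**
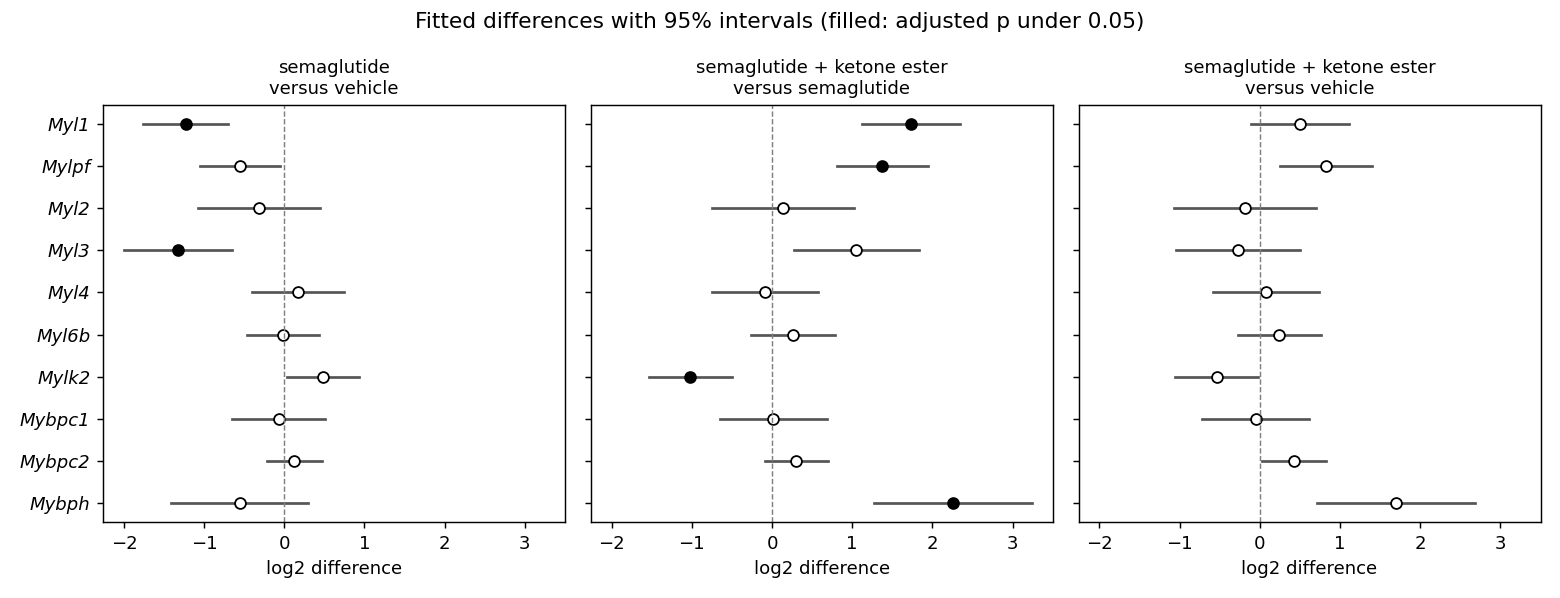
Log2 differences (horizontal axis) of the 10 genes in the 3 comparisons, fitted with limma in all 13 mice; points are estimates, lines 95% intervals, and filled points have an adjusted p under 0.05 over all genes tested. Filled points are Myl1 and Myl3 for semaglutide versus vehicle, and Myl1, Mylpf, Mylk2 and Mybph for semaglutide + ketone ester versus semaglutide, with none for semaglutide + ketone ester versus vehicle.

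Ratios of a pair of these genes within a mouse do not depend on how the library was scaled, and they are given as values without a test. The slow to fast ratios were planned, and those of the essential to the regulatory chain were added after the values had been seen. The regulatory to essential ratio of fast fibres, Mylpf to Myl1 in normalized counts, was 0.869 to 1.05 in vehicle mice, 1.35 to 1.80 in semaglutide mice and 1.08 to 1.28 in semaglutide + ketone ester mice. The 3 groups did not overlap, and mouse 13, at 1.35, was the lowest of its group but above all mice of the others. The essential to regulatory ratio of slow fibres, Myl3 to Myl2, was 1.06 to 1.26 in vehicle mice, 0.443 to 0.702 in semaglutide mice, mouse 13 included, and 0.945 to 1.22 in semaglutide + ketone ester mice. In each semaglutide mouse the essential chain was lower relative to the regulatory chain than in any vehicle mouse, for the fast and for the slow pair.

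Slow to fast ratios varied widely among vehicle and among semaglutide mice. The log2 ratio of Myl2 to Mylpf was -5.46 ± 0.86 in vehicle, -5.22 ± 0.83 in semaglutide and -6.46 ± 0.17 in semaglutide + ketone ester mice, and vehicle mouse 3 was below all 3 semaglutide + ketone ester mice. For Myl3 to Myl1 the values were -5.33 ± 0.88, -5.43 ± 0.77 and -6.11 ± 0.17, and for Mybpc1 to Mybpc2 they were -2.48 ± 0.54, -2.68 ± 0.87 and -2.96 ± 0.40. Vehicle and semaglutide mice overlapped over most of their range in all 3 ratios.

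**Figure D3:**
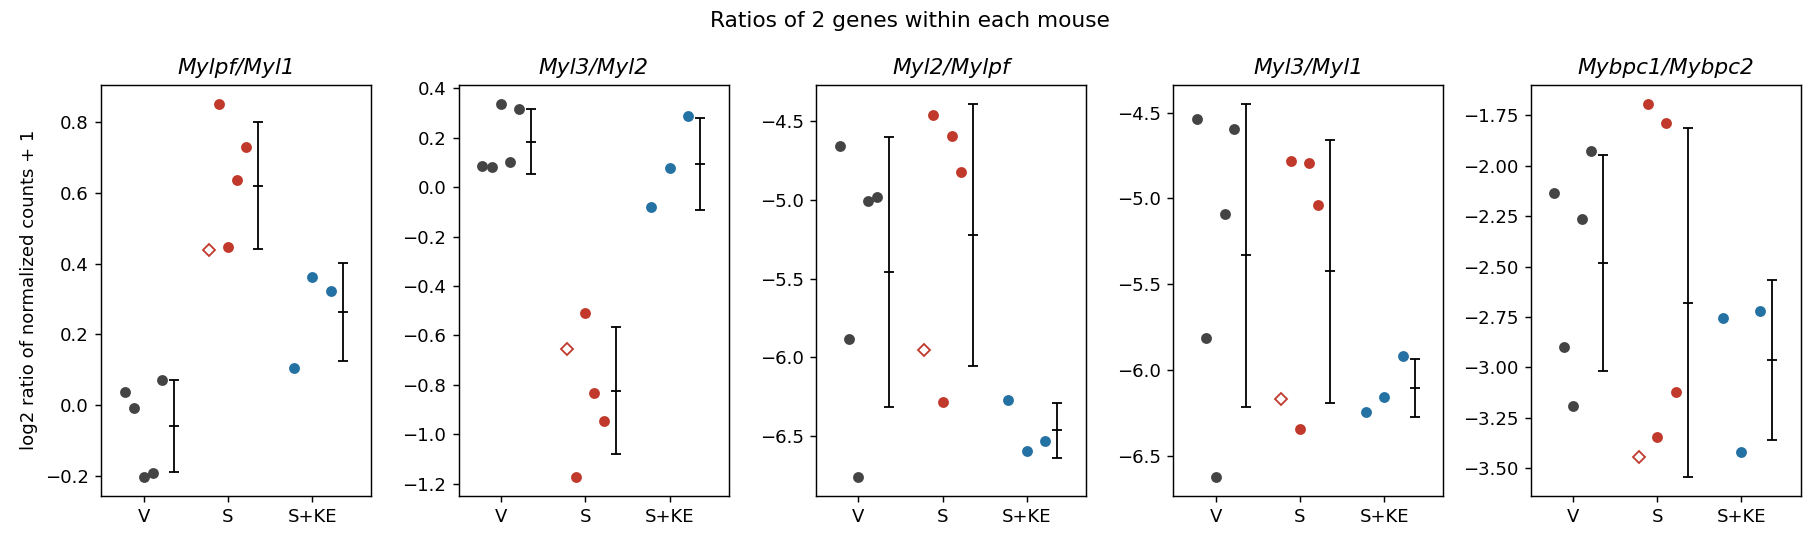
Log2 ratios of normalized counts + 1 for pairs of genes in each mouse (V, vehicle, n = 5; S, semaglutide, n = 5; S+KE, semaglutide + ketone ester, n = 3), with mean ± SD; the open diamond is semaglutide mouse 13 and each panel has its own axis. The 3 groups are separate for Mylpf/Myl1, semaglutide mice lie below the others for Myl3/Myl2, and groups overlap in the 3 slow to fast ratios.

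Across the 13 mice the fast light chains varied together and against Mylk2. Pearson's r on log2 values was 0.93 between Myl1 and Mylpf (Spearman's rho 0.89, 0.88 without the 2 mice farthest from the median, 0.94 for deviations from the group means), and -0.91 between Mylpf and Mylk2 (rho -0.83, -0.91 and -0.77 in the same order). Between Myl2 and Myl3 it was 0.77 (rho 0.78, 0.69 and 0.96). Mylk2 and Mybph had r = -0.85 (rho -0.91, -0.79 and -0.69). The 45 pairs share libraries and the differences between groups, and these values are descriptions only.

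**Figure D4:**
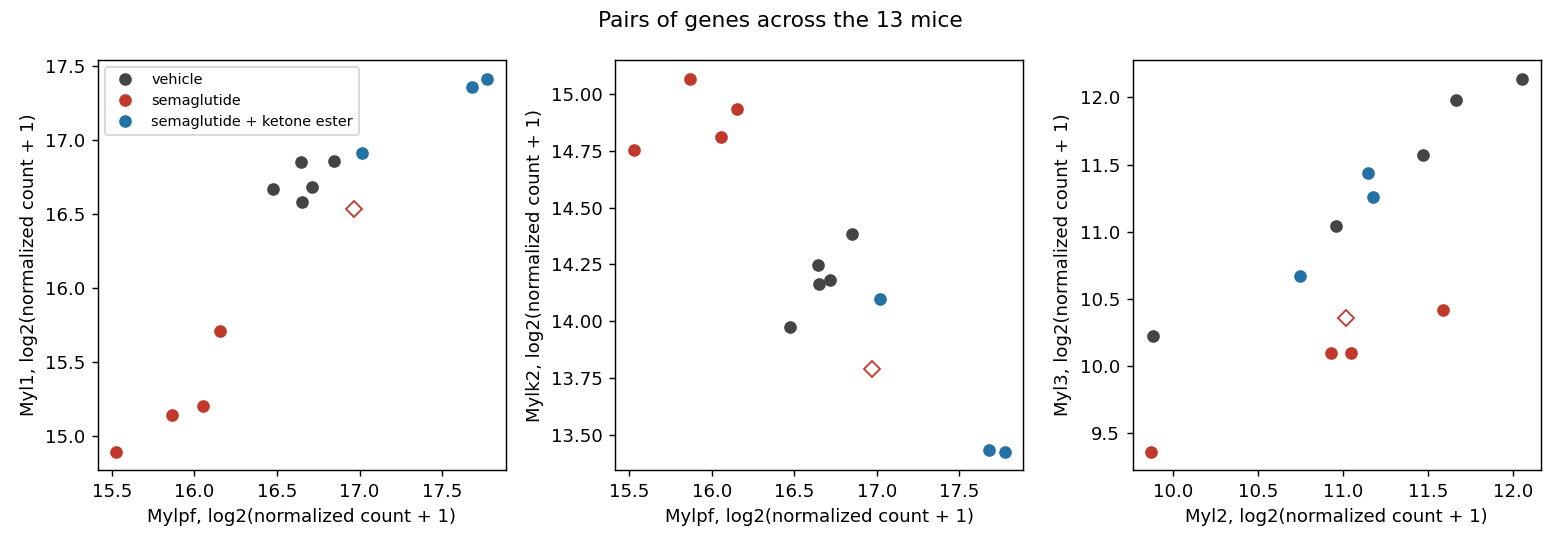
Log2(normalized count + 1) of pairs of genes, 1 point per mouse (13 mice), coloured by group with semaglutide mouse 13 as an open diamond. Myl1 and Mylpf rise together (r = 0.93), Mylk2 falls as Mylpf rises (r = -0.91), and for a given level of Myl2 the semaglutide mice have less Myl3 than the others.

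Each gene was also set beside the 12293 other tested genes to find those with the most similar pattern over the 13 mice. Closest to Myl1 were Pvalb, the calcium buffer parvalbumin of fast fibres (r = 0.99), Ptx3 (0.99) and the glycolytic enzyme Pkm (0.98). Mylpf was closest to the skeletal actin gene Acta1 (0.98), Ccng1 (0.97) and Mrpl42 (0.97). For Myl2 the closest were the slow fibre genes Tnnc1 (0.97), Myh7 (0.95) and Tnni1 (0.94), whereas for Myl3 they were Fxyd6, Apol6 and Khdrbs3 (0.92 each). Mylk2 was closest to the translation factor gene Eif3e (0.98), Arhgap26 and Agpat3 (0.97 each), and Mybph to Sertad3, Plekhh3 and the transcription factor gene Bhlhe40 (0.90, 0.89 and 0.89). Mybpc1 had Fhl1, Hspb6 and Lmcd1 nearest (0.95, 0.94 and 0.93) and Mybpc2 had the giant sarcomere gene Ttn, Abcc9 and Rcsd1 (0.90, 0.90 and 0.89). Myl6b was nearest to Supt7l, Pwwp3b and Zfp442 (0.88, 0.88 and 0.86). For Myl4 the highest r was 0.81, with Ppp1r3d, ahead of Etv1 (0.77) and Cradd (0.75), and without the 2 farthest mice r was 0.63 for Ppp1r3d and 0.42 for Cradd.

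Other fast fibre genes moved with Myl1 and Mylpf only in part. Of 14 such genes, 5 were lower and 1 was higher with semaglutide than with vehicle, with a median log2 difference of -0.51. Those with the smallest p were Pvalb (log2 difference -1.36, adjusted p = 0.00496), the tropomyosin gene Tpm1 (-1.09, adjusted p = 0.00498), the calcium store gene Casq1 (-1.57, adjusted p = 0.00780) and the fast alpha-actinin gene Actn3, which rose (0.74, adjusted p = 0.00668, limma). With semaglutide + ketone ester 7 of the 14 were higher than with semaglutide alone and none lower, with a median of 0.63, and against vehicle none passed the threshold. Thus the fast genes Actn3 and Mybpc2 did not fall with Myl1. Of 13 slow fibre genes only the SERCA regulator Sln differed between semaglutide and vehicle, and it rose (3.15, adjusted p = 0.000253), while Tnnt1 (-0.64), Tpm3 (-0.52) and Atp2a2 (-0.42) did not pass. The median of the slow genes was -0.28, and none of them passed the threshold between semaglutide + ketone ester and semaglutide, where Sln had -1.34 (SE 0.51, adjusted p = 0.0740, limma).

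Among 16 partners of the light chains and binding proteins in the thick filament, semaglutide lowered Myh8 (-0.38, adjusted p = 0.0377) and Myh3 (-0.35, adjusted p = 0.0464), heavy chains of developing muscle, whereas Myh2 (-0.82, adjusted p = 0.0534) and the chaperone partner Smyd1 (-0.45, adjusted p = 0.0772) did not pass in limma. Myh3, Myh8, Smyd1 and the fast heavy chain Myh4 were higher with semaglutide + ketone ester than with semaglutide, and the other 12 did not pass. A list of 8 general muscle fibre genes gave 1 higher (Des, 0.46) and 1 lower (Mb, the myoglobin gene, which oxidative fibres express most, -2.15) with semaglutide, while Acta1 (-0.46) and Pygm (-0.17) did not pass. With semaglutide + ketone ester Acta1 (0.90, adjusted p = 0.0156) and Mb (1.64, adjusted p = 0.00103) were higher and Des was lower (-0.55, adjusted p = 0.0219, limma) than with semaglutide, and the other 5 did not pass.

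Of 11 further light chain, kinase and binding protein genes 7 reached the filter. Mylk4, a kinase related to Mylk2, went opposite to it: it was lower with semaglutide than with vehicle (-0.86, SE 0.22, adjusted p = 0.0111) and higher with semaglutide + ketone ester than with semaglutide (1.31, SE 0.25, adjusted p = 0.00329, limma). Its group means were 35899 ± 3855, 20902 ± 7535 and 49036 ± 5294 normalized counts, without overlap between groups. Mylk, the kinase of smooth muscle, was also lower with semaglutide (-0.53, adjusted p = 0.00164), as were 3 of the 5 smooth muscle markers, whose part in this was not tested. Myl6 (0.18) and Myl9 (-0.38) did not pass between semaglutide and vehicle, and Myl6 was lower with semaglutide + ketone ester than with semaglutide (-0.39, adjusted p = 0.00628), as was Myl12b. Of the partners of the kinase, the calmodulin genes Calm2 (-0.80, adjusted p = 0.0201) and Calm3 (-0.82, adjusted p = 0.0340) were lower with semaglutide, and the myosin phosphatase gene Ppp1r12a (0.19) did not pass. With the ketone ester Calm2 was higher (0.91, adjusted p = 0.0270) and Ppp1cb was lower than with semaglutide alone.

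Genes that rise in denervated or immature fibres were tallied because Myl4 is also expressed in developing muscle. Of 12 such genes 10 reached the filter, of which 4 were higher with semaglutide than with vehicle, namely Chrna1 (0.82, adjusted p = 0.000241), Myod1 (1.61, adjusted p = 0.000311), Gadd45a (1.40, adjusted p = 0.00322) and Runx1 (0.77, adjusted p = 0.0350, limma), and 2 were lower, Myh3 and Myh8. Between semaglutide + ketone ester and semaglutide 2 were higher, again Myh3 and Myh8, and 3 were lower, Musk, Myod1 and Gadd45a. Mybph moved in the same direction as Myh3 and Myh8 in that comparison, and Myl4 did not pass the threshold in any.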

How the data were processed

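The authors prepared stranded mRNA libraries from gastrocnemius RNA of 13 mice and aligned reads to mm10 with DRAGEN. DESeq2 is listed among the tools in the submitters' processing notes. The deposited values are a signal, that is, gene counts normalized by the authors, in a table with a column for each mouse. The gene counter, its annotation and its use of strand are not given in the sources used here. Every value was a whole multiple of 1 step per mouse (100% of values within 0.01), so whole reads could be recovered, 15319471 to 23498162 per mouse. Precision is limited by the number of mice, and for scarce genes depth can add to the spread. Myl4 had as few as 63 reads in a mouse and Myl6b as few as 81. The part of depth was not tested.

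The main test was limma 3.58.1 (R 4.3.3) with a variance trend on log2(normalized count + 1), for the 12303 of 21868 genes with a mean of at least 10 over all mice. The 3 groups were fitted together, p-values were adjusted by Benjamini-Hochberg over all genes tested, and the threshold was 0.05. The log2(normalized count + 1) scale understates differences of low genes. All libraries carry the same batch label. Fits with edgeR 4.0.16 and DESeq2 1.42.0 on recovered reads, other pseudocounts, filters, scalings, weights and mice were alternatives. The script was tested on simulated data. Coordinates and exon lengths (union of all annotated exons) came from GENCODE M21 (GRCm38), promoters from RefSeq.

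All 10 genes were named. From each further list, counts and up to 4 genes with the smallest p for semaglutide versus vehicle were named, with other called genes where counts were small, and for each of the 10 the 3 other genes with the highest Pearson's r. A gene of these lists is not reported here. The genes and lists were chosen with earlier results of these data known.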

Additional observations from a re-analysis of the deposited data

Results flagged for a closer look

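Mylk2 in semaglutide mouse 13 stood apart from the other 4 semaglutide mice: on the log2 scale, the gap to its nearest neighbour was 0.755 of the range of the group (Dixon's criterion for 5 mice), with 14162 normalized counts against 27660 to 34378. It was the 1 group flagged out of 26 tested, and chance flags about 1 in 20. The same mouse lay outside the range of the other semaglutide mice for Myl1, Mylpf, Mybpc1 and Mybph as well. The cause was not tested.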

How the results depend on the processing

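The calls of Myl1 and Myl3 for semaglutide versus vehicle, and of Myl1, Mylpf and Mybph for semaglutide + ketone ester versus semaglutide, passed in all 25 other settings, including limma without a variance trend, which was added after seeing the data. Of the 10 genes, 5 passed the threshold for semaglutide versus vehicle with limma arrayWeights, where 40.5% of all genes tested were called. When leaving out 1 mouse 2 to 5 passed, against 19.3% to 37.5%, and 5 only without mouse 13 (37.5%). For semaglutide + ketone ester versus vehicle 2 passed with arrayWeights (2.58% of all genes), 2 with only the groups compared (2.18%) and 1 with DESeq2 (1.39%). When leaving out 1 mouse 0 to 1 passed, the 1 being Mybph without mouse 13 (1.07%). Small differences that never passed the threshold changed sign. For semaglutide versus vehicle, Myl6b became 0.158 with equal totals, 0.0316 with quantile normalization, 0.0368 with edgeR and 0.0331 with DESeq2, and Mybpc1 became 0.103 with equal totals, 0.00716 with edgeR and 0.00186 with DESeq2. For semaglutide + ketone ester versus semaglutide, Mybpc1 became -0.219 with equal totals, -0.0204 with quantile normalization, -0.0655 with edgeR and -0.0669 with DESeq2, Myl2 became -0.103 with equal totals, and Mybpc2 became -0.103 with quantile normalization. Leaving out 1 mouse gave, for semaglutide versus vehicle, -0.00992 to 0.307 for Myl4, -0.160 to 0.145 for Myl6b and -0.269 to 0.107 for Mybpc1. For semaglutide + ketone ester versus semaglutide it gave -0.120 to 0.309 for Myl2, -0.305 to 0.131 for Myl4 and -0.160 to 0.216 for Mybpc1, and versus vehicle -0.512 to 0.0306 for Myl2, -0.136 to 0.300 for Myl4 and -0.213 to 0.116 for Mybpc1. The cause was not tested. No paired analysis was possible because the groups share no mouse numbers. Rescaling to equal totals moved the median of all genes by 0.17 and -0.24 in the first 2 comparisons. With 3 to 5 mice a group, differences as small as those of Myl2, Myl4, Myl6b and Mybpc1 could not be resolved.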
